A study of Laccaria bicolor with 18 samples.

Results

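Caps and stipes of early basidiocarps of the ectomycorrhizal mushroom *Laccaria bicolor* were compared with each other, using the reads counted on each gene model in 3 early cap libraries and 3 early stipe libraries. These 6 libraries were chosen by the tissue and stage in their labels, out of 18 libraries that cover caps and stipes at 3 stages (early, medium and late, 3 libraries a group). All groups were strain S238N, taken from basidiocarps that grew under inoculated Douglas fir seedlings in a nursery, and cap and stipe were separated at harvest. Neither an age in days nor the number of basidiocarps in a library is given in the sources used here, so the stages are those of the labels. The labels call the replicates biological, but no source says that they came from separate basidiocarps, and p-values measure only the spread between these samples. The study's clustering figure counts fewer biological replicates of basidiocarps than the 18 libraries.

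The basidiocarp is the sexual organ of the fungus. Its cap carries the gills, on which basidia undergo meiosis and form spores, and its stipe lifts the cap by the elongation of hyphal cells, which involves the loosening and rebuilding of walls made of chitin and beta-glucan. Hydrophobins, small secreted proteins that assemble on the surface of hyphae, keep aerial tissues water-repellent. In *Coprinopsis cinerea* and *Schizophyllum commune*, in which fruiting can be induced in the laboratory, a small number of transcription factors are known to be needed for basidiocarps to form or mature.

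Levels are given as CPM, counts per 1e6 reads after TMM scaling of the libraries, always in the order of replicates 1, 2 and 3. Fold changes are log2 of early cap over early stipe, given with their standard error, so a positive value means a higher level in early caps. A gene model was called when this value was above 1 in size and its Benjamini-Hochberg adjusted p in edgeR's quasi-likelihood test was under 0.05. Of 16485 gene models tested, 850 (5.16%) were called, of which 359 (2.18%) were higher and 491 (2.98%) were lower in early caps. There were 446 calls without early cap 2, 225 higher and 221 lower. A further part of the transcriptome differed by less, as 1604 gene models had an adjusted p under 0.05 at any fold change, 742 higher and 862 lower in early caps. The median log2 fold change over all gene models tested was 0.02. The 3 caps lay wholly above or below the 3 stipes in 835 of the 850, against 33.8% of all gene models tested. As the call used these same libraries, this separation is no independent evidence of a difference.

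Early caps held higher levels than early stipes of LbCon7, a zinc finger protein (log2 fold change 3.79), of 2 of 8 chitin deacetylases (1.87 and 1.83), which convert wall chitin to chitosan, of the fatty acid desaturases FAD12-1 and FAD12-3 (2.97 and 2.61) and of 33 of 241 small secreted proteins. Lower in early caps were 4 of 11 protease inhibitors, with the clitocypin 318727 at -2.99, 2 of 7 chitinases (-2.73 and -1.64), 6 of 22 other enzymes of beta-glucan, 10 of 47 F-box proteins and 5 of 12 BTB proteins. These counts without early cap 2 were 1 for protease inhibitors, 2 for chitinases, 2 for enzymes of beta-glucan, 5 for F-box proteins and 2 for BTB proteins, and 20 small secreted proteins were higher. Of 8 transcription factors named for fruiting 1 was called. Each count is out of tested members that stand in the study's tables of regulated genes, not out of a whole gene family. Over all annotated gene models tested, 4.13% were higher and 6.78% lower in early caps. Of the 2 chitin deacetylases, the second has an implied transcript length of only 171 nucleotides.

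**Figure D1:**
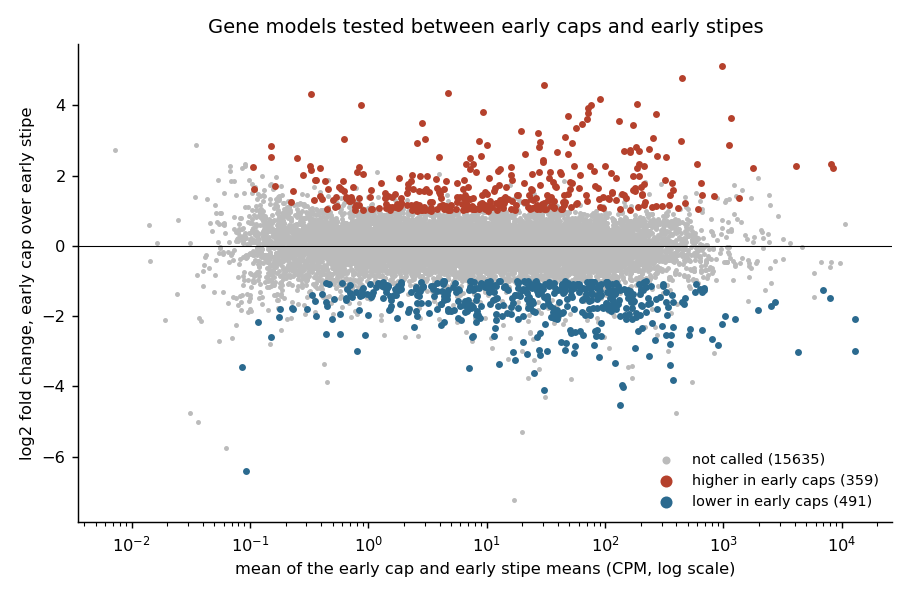
Log2 fold change of early cap over early stipe (y axis) against the mean level in CPM (x axis, log scale) for each gene model tested. Red points are the 359 called higher in early caps, blue points the 491 called lower and grey points those not called. Called gene models are found across the whole range of levels, and in both directions most lie between 1 and 2 in size.

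Depth in the early libraries was between 40879632 and 58535313 reads counted in caps and between 50099834 and 70771764 reads in stipes, and in each of them between 17521 and 17822 of the 23130 gene models had at least 1 read. The top 50 gene models by reads held 19.9% to 20.7% of the reads in early caps and 22.1% to 24.6% in early stipes. Over all gene models tested, the distance between libraries (1 minus the Pearson correlation of log2 CPM) was 0.0199 to 0.0459 between a cap and a stipe, 0.0114 to 0.0130 among caps and 0.0109 to 0.0185 among stipes. The biological coefficient of variation, the relative spread between replicates beyond counting noise, was 16.2% to 18.2% between early caps and 17.3% to 25% between early stipes. Among the later libraries used in the same model, medium stipes 1 and 2 and late caps 2 and 3 were nearly alike (4.05% to 4.16%, against 9.3% to 39.3% for the other pairs), and summing each pair gave 778 calls in place of 850. No marker of cap or stipe was set for this species, so the tissue labels were not checked against markers.

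The sizes were alike in both directions, with a median of 1.44 for the gene models that rose and 1.46 for those that fell. A size above 3 was reached by 27 that rose and 20 that fell. In other respects the 2 sets differed. Those higher in early caps had a median transcript length of 837 nucleotides (implied by counts and RPKM), those lower 1230 nucleotides and all gene models tested 1038 nucleotides. Small secreted proteins, as the study's secretome annotation names them, made up 9.19% of the gene models higher in early caps, 2.85% of those lower and 1.46% of all tested. Called gene models carry an annotation more often (46.0% and 55.2%, against 24.2% of all tested). This excess cannot be read as their trait, because the annotation comes from the study's lists of regulated genes. Some of those lists were made from these same libraries. Among annotated gene models, small secreted proteins made up 20% of those higher, 5.17% of those lower and 6.03% of all tested. These shares are descriptions, without a test. In bulk tissue, fewer cells of a type and less RNA per cell cannot be told apart, which holds for each value below.

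The 10 largest rises in early caps, among called gene models of at least 5 CPM in caps and without overlap of libraries, were 5 small secreted proteins, a transcription factor, a terpene synthase-like protein, a nuclease-like protein and a pair of gene models without annotation. Gene model 706099, annotated with 3'-5' exonuclease activity, had the largest, at 1175, 2315 and 2185 CPM in early caps, against 124, 24.3 and 13.7 CPM in early stipes (log2 fold change 5.13 ± 0.73, adjusted p = 0.00039). Every cap lay far above every stipe, and stipe 1 was the highest stipe. The small secreted protein 295528, annotated with growth factor activity, came next, with 625, 799 and 1137 CPM in early caps, against 64.9, 18.9 and 9.83 CPM in early stipes (log2 fold change 4.77 ± 0.91, adjusted p = 0.00376). It too was higher in stipe 1 than in the other stipes. Such an order was frequent, as stipe 1 was the highest stipe in 210 (58.5%) of the 359 gene models higher in early caps and in 32.5% of all tested.

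The other secreted proteins among them were 678092 (42.9, 76.2 and 55.4 CPM in early caps, against 4.91, 1.54 and 0.918 CPM in early stipes, log2 fold change 4.57 ± 0.55, adjusted p = 9.68e-05), 316267 (109, 222 and 187 CPM in early caps, against 12.5, 10.2 and 5.82 CPM in early stipes, log2 fold change 4.18 ± 0.34, adjusted p = 4.39e-06), 388995 and 691897. Gene model 388995 had 305, 409 and 334 CPM in early caps, against 28.99, 16.2 and 18.1 CPM in early stipes (log2 fold change 4.05 ± 0.32, adjusted p = 3.98e-06). Gene model 691897 had 127, 173 and 108 CPM in early caps, against 10.7, 6.47 and 9.93 CPM in early stipes (log2 fold change 3.91 ± 0.63, adjusted p = 0.00108). Within each tissue these values differed by far less than between tissues. LbCon7 (292045), a C2H2 zinc finger protein named after a regulator of conidium formation in the rice blast fungus, had 139, 165 and 96.5 CPM in early caps, against 12.8, 10.02 and 5.999 CPM in early stipes (log2 fold change 3.79 ± 0.54, adjusted p = 0.00039). Gene model 484390 carries a terpene synthase domain, which marks enzymes that make volatile or defensive terpenes, and had 127, 123 and 176 CPM in early caps, against 14.97, 6.99 and 4.42 CPM in early stipes (log2 fold change 4.01 ± 0.40, adjusted p = 2.15e-05). The remaining gene models, 301915 and 438313, had 8.79, 4.57 and 13.7 CPM in early caps, against 0.848, 0.185 and 0.313 CPM in early stipes for 301915 (log2 fold change 4.36 ± 0.85, adjusted p = 0.00428) and 16.3, 14.8 and 20.5 CPM in early caps, against 1.77, 0.995 and 0.918 CPM in early stipes for 438313 (log2 fold change 3.81 ± 0.27, adjusted p = 2.26e-06). All of these 10 kept their call under each of 17 other settings tried.

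**Figure D2:**
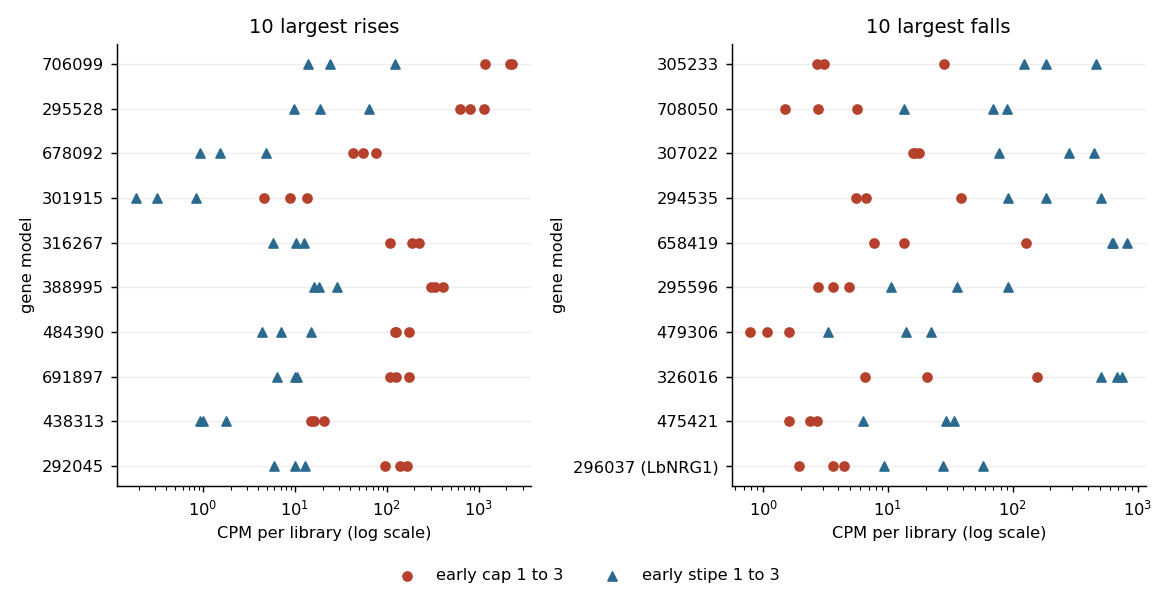
CPM in each early library (x axis, log scale) for the 10 largest rises (left panel) and the 10 largest falls (right panel) in early caps, with 1 row a gene model. Red circles are early caps 1 to 3 and blue triangles early stipes 1 to 3. No cap overlaps a stipe in any row, and among the falls 1 cap lies closer to the stipes in 305233, 294535, 658419 and 326016, which is early cap 3.

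The 10 largest falls, chosen in the same way, held small secreted proteins, enzymes of oxidation and methylation, a protease inhibitor, a zinc finger protein and 4 gene models without annotation. The small secreted protein 305233 carries a CFEM domain, a cysteine-rich domain of fungal extracellular membrane proteins, and had 3.05, 2.68 and 27.9 CPM in early caps, against 122, 185 and 468 CPM in early stipes (log2 fold change -4.52 ± 0.87, adjusted p = 0.00378). The small secreted protein 658419 had 13.6, 7.72 and 128 CPM in early caps, against 636, 824 and 629 CPM in early stipes (log2 fold change -3.81 ± 0.82, adjusted p = 0.00725). In both, early cap 3 lay far above caps 1 and 2 and still below every stipe. Gene model 307022, annotated as a heme monooxygenase, had 15.9, 17.6 and 16.5 CPM in early caps, against 78.2, 446 and 284 CPM in early stipes (log2 fold change -4.01 ± 1.09, adjusted p = 0.0286), and its caps were nearly equal while its stipes spread widely. Its call was lost when early caps 1, 2 and 3 and early stipes 2 and 3 were each left out (adjusted p = 0.0552 to 0.118). Gene model 475421, an O-methyltransferase of family 2, had 2.39, 1.62 and 2.68 CPM in early caps, against 6.33, 33.9 and 29.3 CPM in early stipes (log2 fold change -3.38 ± 0.85, adjusted p = 0.0192), and its call was lost when early caps 1, 2 and 3 and early stipe 2 were each left out (adjusted p = 0.0559 to 0.104). The zinc finger protein LbNRG1 (296037) had 3.64, 1.93 and 4.41 CPM in early caps, against 9.25, 27.7 and 57.8 CPM in early stipes (log2 fold change -3.25 ± 0.74, adjusted p = 0.0106), and its call was lost when early cap 2 and early stipe 3 were each left out (adjusted p = 0.0514 to 0.0722).

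Without annotation were 708050 (2.76, 1.48 and 5.70 CPM in early caps, against 13.4, 89.3 and 69.8 CPM in early stipes, log2 fold change -4.11 ± 1.15, adjusted p = 0.0333), 294535 (6.62, 5.53 and 38.8 CPM in early caps, against 91.9, 185 and 514 CPM in early stipes, log2 fold change -3.95 ± 0.90, adjusted p = 0.0106), 295596 (3.66, 2.77 and 4.88 CPM in early caps, against 10.5, 36.1 and 92.2 CPM in early stipes, log2 fold change -3.61 ± 0.78, adjusted p = 0.00735) and 479306 (1.07, 0.790 and 1.61 CPM in early caps, against 3.33, 13.99 and 22.00 CPM in early stipes, log2 fold change -3.49 ± 0.68, adjusted p = 0.00435). Stipe 1 was the lowest stipe in each of them. The call of 708050 was lost when early caps 1, 2 and 3 and early stipes 2 and 3 were each left out (adjusted p = 0.0638 to 0.157), that of 294535 without early cap 2 (adjusted p = 0.0642) and that of 295596 without early cap 2 (adjusted p = 0.0543), and that of 479306 was kept. The clitocypin 326016 is given below with the protease inhibitors. Of all 491 gene models lower in early caps, 193 (39.3%) kept their call with each of the 6 early libraries left out in turn, and of the 359 higher in early caps, 177 (49.3%) did. Without early cap 2 alone, 216 (44.0%) of the falls and 216 (60.2%) of the rises were kept. Early cap 2 was the lowest cap in 385 (78.4%) of the 491, against 36.0% of all gene models tested, and early cap 3 the highest in 289 (58.9%), against 30.6%.

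Among called gene models with the highest RPKM, which corrects for transcript length, 474038 stood first in early caps. It carries a CsbD-like domain, known from a stress protein of bacteria, and had 13066, 13866 and 14465 CPM in early caps, against 4154, 2114 and 2573 CPM in early stipes (log2 fold change 2.23 ± 0.57, adjusted p = 0.0202), or 34001 RPKM in early caps and 6715 RPKM in early stipes. Gene model 654325, without annotation, followed with 10829, 14524 and 15355 CPM in early caps, against 3882, 2946 and 1249.8 CPM in early stipes (log2 fold change 2.33 ± 0.50, adjusted p = 0.00759). The small secreted proteins 442443 and 294590 and gene model 661898 complete the 5. The first of them had 5304, 8192 and 7095 CPM in early caps, against 1928, 1331 and 993 CPM in early stipes (log2 fold change 2.28 ± 0.65, adjusted p = 0.0368), 294590 had 1698, 2863 and 1815 CPM in early caps, against 287, 122 and 105 CPM in early stipes (log2 fold change 3.63 ± 0.60, adjusted p = 0.00131) and 661898 had 1943, 2131 and 1763 CPM in early caps, against 997, 767 and 520.1 CPM in early stipes (log2 fold change 1.35 ± 0.35, adjusted p = 0.0226). Caps and stipes did not overlap in any of the 5. Of these calls, 3 depended on single libraries. That of 474038 was lost when early cap 2 and early stipes 2 and 3 were each left out (adjusted p = 0.0636 to 0.0998), that of 442443 with any of the 6 early libraries left out (adjusted p = 0.0513 to 0.127) and that of 661898 when early caps 1 and 2 and early stipes 2 and 3 were each left out (adjusted p = 0.0506 to 0.0914).

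On the other side, the clitocypin 318727 had the highest RPKM, 5056 RPKM in early caps and 37021 RPKM in early stipes. The next were 293818 with 3856, 2534 and 8581 CPM in early caps, against 21249, 15618 and 26376 CPM in early stipes (log2 fold change -2.08 ± 0.51, adjusted p = 0.0171) and 318749 with 3289.6, 3686 and 5604 CPM in early caps, against 12835, 9759 and 12542 CPM in early stipes (log2 fold change -1.48 ± 0.45, adjusted p = 0.0477), both without annotation, and 293300, also without annotation, with 274, 236 and 2323 CPM in early caps, against 8355, 5092 and 9381 CPM in early stipes (log2 fold change -3.01 ± 0.81, adjusted p = 0.0272). Early cap 3 was the highest cap in each of these. The hydrophobin LbH11 closes the set. The call of 293818 was lost when early caps 1 and 2 and early stipe 3 were each left out (adjusted p = 0.0521 to 0.0998), that of 318749 with any of the 6 early libraries left out (adjusted p = 0.0617 to 0.179) and that of 293300 when early caps 1 and 2 and early stipe 3 were each left out (adjusted p = 0.0625 to 0.116). With the 6 early libraries fitted alone, that of 293300 was lost as well (adjusted p = 0.0571).

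Secreted proteins below a size limit are a group in which *L. bicolor* is rich, and some of them act as effectors that the fungus sends into host root cells. The study's tables of regulated genes name 243 such gene models, which are not the whole group, and 241 were tested. Of these, 33 (13.7%) rose and 14 (5.81%) fell in early caps, while their median log2 fold change was 0.01. Of all 3996 tested gene models with an annotation from the study, 165 (4.13%) rose and 271 (6.78%) fell. Without early cap 2, 20 secreted proteins rose and 8 fell, and without early stipe 3, 21 rose. Their summed level was 51689, 67083 and 59508 CPM in early caps, against 53888, 50502 and 40169 CPM in early stipes, which overlap. The largest members in both directions are those named above.

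Mycorrhiza-induced small secreted proteins (MiSSPs) are those whose transcripts increase when the fungus colonizes roots. By their RefSeq symbols, chosen after the values were seen, 20 of 27 such gene models were tested, of which 3 rose and 4 fell, with a median of -0.58. Over all gene models tested, 2.18% rose and 2.98% fell. MISSP12 (395257), annotated with hormone activity, had 403, 529 and 583 CPM in early caps, against 65.1, 25.9 and 20.7 CPM in early stipes (log2 fold change 3.76 ± 0.73, adjusted p = 0.00398). MISSP22.4 (303456) had 51.01, 89.7 and 61.6 CPM in early caps, against 20.6, 14.7 and 11.6 CPM in early stipes (log2 fold change 2.11 ± 0.28, adjusted p = 0.000225), and MISSP16.2 (333197) rose less, with a log2 fold change of 1.33 ± 0.21 (adjusted p = 0.000847). All 3 kept their call with each early library left out. Lower in early caps was MISSP23.4 (293729), with 213, 181 and 266 CPM in early caps, against 1203, 1714 and 1225 CPM in early stipes (log2 fold change -2.65 ± 0.45, adjusted p = 0.00155). MISSP13.7 (326045) had 2.59, 2.16 and 3.70 CPM in early caps, against 7.63, 7.76 and 12.2 CPM in early stipes (log2 fold change -1.70 ± 0.22, adjusted p = 0.000203), and MISSP24.2 (293250) and MISSP6.5 (308110) had log2 fold changes of -1.70 ± 0.28 (adjusted p = 0.00124) and -1.29 ± 0.29 (adjusted p = 0.00958). The call of MISSP6.5 was lost when early cap 2 and early stipe 2 were each left out (adjusted p = 0.0506 to 0.065). Of a list of 10 gene models that the study's clusters name as MiSSPs, 8 were tested and only MISSP13.7 was called, with a median of -1.51.

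Hydrophobins coat hyphae that grow into air. Of 9 gene models tested, 1 fell and none rose, with a median of -0.01. LbH11 (180892) had 916, 991 and 1586 CPM in early caps, against 4682, 4628 and 2232 CPM in early stipes (log2 fold change -1.72 ± 0.38, adjusted p = 0.00833), and its call was lost without early cap 2 (adjusted p = 0.0556). Early cap 3 and early stipe 3 were the closest to each other. Gene model 624234 did not pass the test, with 1299.6, 1837 and 1773 CPM in early caps, against 2662, 2140.2 and 1777 CPM in early stipes (log2 fold change -0.42 ± 0.35, adjusted p = 0.486), and the tissues overlapped. LbH14 (318421) lay higher in all caps, with 24.7, 20.2 and 27.3 CPM in early caps, against 4.06, 13.9 and 3.56 CPM in early stipes (log2 fold change 1.74 ± 0.59, adjusted p = 0.0741), and was not called. It was called without early stipe 2 (log2 fold change 2.65, adjusted p = 0.0209). The other members were at a few CPM or less, with log2 fold changes of 0.60 for LbH13 (335058), 0.57 for LbH1 (399293), -0.01 for 399287, -0.02 for LbH9 (253198), -0.06 for LbH12 (241509) and -0.42 for 389286, none of which was called.

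Expansins and expansin-like proteins loosen wall polymers without cutting them. None of the 6 tested was called, though 306030 was called lower without early stipe 3 (log2 fold change -1.07, adjusted p = 0.0463). The closest to the threshold was 306030, with 505, 515 and 488 CPM in early caps, against 1001, 1091 and 731 CPM in early stipes (log2 fold change -0.91 ± 0.28, adjusted p = 0.0533), each stipe above each cap. Gene model 243825 overlapped between the tissues (460.3, 389 and 397 CPM in early caps, against 539.6, 569 and 323 CPM in early stipes, log2 fold change -0.20 ± 0.29, adjusted p = 0.713). The other members had log2 fold changes of 0.56 (331387), -0.02 (313260), -0.05 (323571) and -0.22 (331389).

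Chitin and beta-glucan make up the wall that must be remodelled as hyphae elongate. Both called chitinases of family GH18, of 7 tested, fell in early caps. Gene model 185397 had 3.33, 3.56 and 8.94 CPM in early caps, against 23.2, 42.9 and 39.5 CPM in early stipes (log2 fold change -2.73 ± 0.51, adjusted p = 0.00322) and 236861 had 5.57, 2.60 and 7.40 CPM in early caps, against 11.4, 17.6 and 19.8 CPM in early stipes (log2 fold change -1.64 ± 0.31, adjusted p = 0.00347). The chitin deacetylases (family CE4), which turn chitin into chitosan, went the other way, as 2 of 8 rose and none fell. Gene model 296684 had 391, 688 and 422 CPM in early caps, against 166, 135 and 111 CPM in early stipes (log2 fold change 1.87 ± 0.29, adjusted p = 0.000779), and 296683 had 46.6, 78.8 and 45.98 CPM in early caps, against 18.2, 16.1 and 14.03 CPM in early stipes (log2 fold change 1.83 ± 0.25, adjusted p = 0.000265). The implied transcript length of 296683 was only 171 nucleotides, against 555 nucleotides for 296684. Whether they are 2 separate enzymes was not tested. All of these 4 calls were kept with each early library left out. None of the 3 chitin synthases was called, with log2 fold changes from -0.44 to -0.31. 

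Of 22 other enzymes of beta-glucan (hydrolases, transferases and thaumatin-like proteins), 6 (27.3%) fell in early caps and none rose, with a median of -0.27. The GH30 enzyme 317672 had 16.8, 11.8 and 29.2 CPM in early caps, against 105, 99.5 and 105 CPM in early stipes (log2 fold change -2.42 ± 0.40, adjusted p = 0.00124). The GH128 enzyme 175190 had 832, 722 and 1019 CPM in early caps, against 3691, 3449 and 2003 CPM in early stipes (log2 fold change -1.83 ± 0.40, adjusted p = 0.00856), and its call was lost without early cap 2 (adjusted p = 0.0565). The GH5 enzyme 152096 had 33.2, 29.1 and 29.9 CPM in early caps, against 50.8, 52.7 and 115 CPM in early stipes (log2 fold change -1.25 ± 0.27, adjusted p = 0.00847), and its call was lost without early stipe 3 (log2 fold change -0.76). The second GH30 enzyme, 310686, had a log2 fold change of -1.16 ± 0.33 (adjusted p = 0.0329), and its call was lost with any of the 6 early libraries left out (adjusted p = 0.0533 to 0.167). The number that fell was 2 without early cap 2, 4 without early stipe 3 and 3 without any other early library. None of 18 GH16 enzymes, which cut or join beta-glucans, was called, with a median of -0.04, though 1 rose without early cap 3 and 1 fell without early stipe 3. Their summed level was 2002, 2303 and 1863 CPM in early caps, against 2737, 2754 and 1402 CPM in early stipes, which overlap.

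Protease inhibitors included the called gene model with the highest RPKM in early stipes. Clitocypins inhibit cysteine proteases and cospins serine proteases, and in other mushrooms both kinds are known as defence proteins against animals that feed on them. Of 11 gene models tested 4 (36.4%) fell and none rose, with a median of -0.68. The summed level of the 11 was 3598, 1884 and 9655 CPM in early caps, against 27446, 21800.4 and 35845 CPM in early stipes, so that the highest cap stayed below the lowest stipe. Most of these reads were those of clitocypin 318727, with 1972, 622 and 6111 CPM in early caps, against 22322, 17805 and 28937 CPM in early stipes (log2 fold change -2.99 ± 0.64, adjusted p = 0.00752). Clitocypin 293826 had 276, 241 and 929.5 CPM in early caps, against 2001, 1393 and 2703 CPM in early stipes (log2 fold change -2.08 ± 0.51, adjusted p = 0.0163), clitocypin 326016 had 20.4, 6.59 and 157 CPM in early caps, against 506, 680.4 and 750.1 CPM in early stipes (log2 fold change -3.40 ± 0.87, adjusted p = 0.0218) and Cospin2 (674342) had 102, 75.6 and 234 CPM in early caps, against 647, 441 and 521 CPM in early stipes (log2 fold change -1.97 ± 0.50, adjusted p = 0.0206). Early cap 3 was the highest cap in all 4. Cospin1 (295829) ranged from 114 CPM in early cap 2 to 1189 CPM in early cap 3, overlapped with the stipes (833, 513 and 1266 CPM) and was not called (log2 fold change -0.68 ± 0.96, adjusted p = 0.707). The call of 318727 was kept with each library left out. That of 293826 was lost when early caps 1 and 2 and early stipe 3 were each left out (adjusted p = 0.0554 to 0.0924), that of 326016 when early caps 1 and 2 and early stipe 2 were each left out (adjusted p = 0.0528 to 0.0715) and that of Cospin2 when early caps 1 and 2 and early stipe 1 were each left out (adjusted p = 0.0503 to 0.111), so that 1 of the 4 calls was left without early cap 1 and 1 without early cap 2. With the 6 early libraries fitted alone, the call of 326016 was lost (adjusted p = 0.0581). Clitocypins have near-identical copies, among which the counting may have shared reads, and their values are uncertain to that extent.

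**Figure D3:**
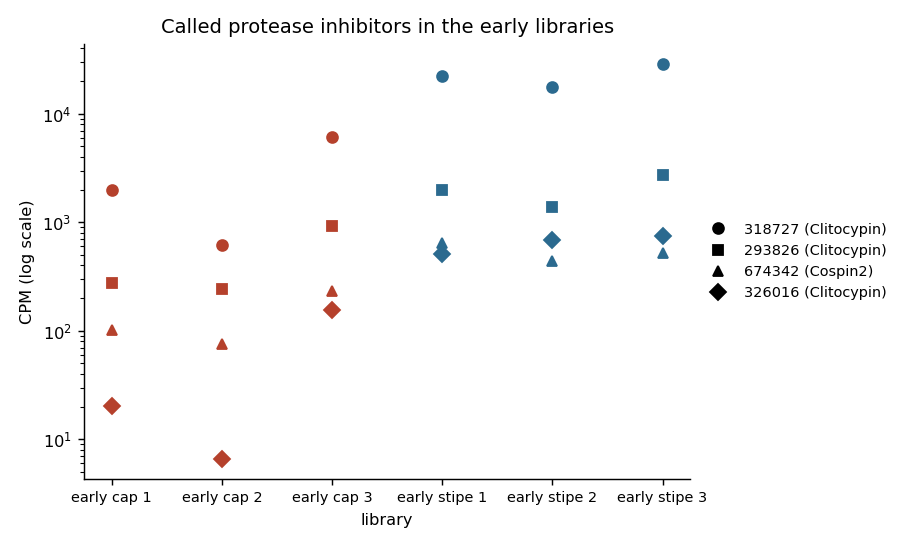
CPM (y axis, log scale) of the 4 called protease inhibitors in each of the 6 early libraries (x axis). Red symbols are early caps and blue symbols early stipes, with 1 shape a gene model. In each gene model every cap lies below every stipe, and early cap 3 is the highest of the caps.

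Secreted proteases and lipases break down proteins and lipids outside the hyphae. Of 30 proteases 2 rose and 2 fell (6.67% each, beside 4.13% and 6.78% of annotated gene models). Without early cap 1, 4 rose and 1 fell. The serine peptidase 685146 had 63.8, 72.5 and 57.7 CPM in early caps, against 29.8, 32.00 and 19.6 CPM in early stipes (log2 fold change 1.25 ± 0.24, adjusted p = 0.00337), and the serine carboxypeptidase LbPR_S4 (310502) had 114, 158 and 96.8 CPM in early caps, against 69.3, 56.4 and 44.7 CPM in early stipes (log2 fold change 1.11 ± 0.26, adjusted p = 0.0138), a call lost when early cap 2 and early stipes 2 and 3 were each left out (adjusted p = 0.0551 to 0.095). The fungalysin metallopeptidase 637700 had 1282, 1322 and 1494 CPM in early caps, against 3359.9, 4299.7 and 4689 CPM in early stipes (log2 fold change -1.59 ± 0.31, adjusted p = 0.00385). The aspartic peptidase LbPR_A1 (302848) had 3.64, 3.51 and 4.36 CPM in early caps, against 12.5, 25.2 and 20.9 CPM in early stipes (log2 fold change -2.35 ± 0.63, adjusted p = 0.0263), a call lost when early caps 1, 2 and 3 and early stipes 2 and 3 were each left out (adjusted p = 0.0592 to 0.116). Of 11 lipases 2 (18.2%) rose and none fell. Gene model 187526 had 249, 451 and 262 CPM in early caps, against 73.8, 45.2 and 16.5 CPM in early stipes (log2 fold change 2.83 ± 0.50, adjusted p = 0.00204) and 321319 had 12.4, 19.4 and 21.2 CPM in early caps, against 6.69, 5.73 and 4.53 CPM in early stipes (log2 fold change 1.64 ± 0.26, adjusted p = 0.000874), and both calls were kept with each early library left out.

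Among oxidative enzymes, laccases (family AA1), which oxidize phenols and take part in pigment and wall chemistry, were lower in early caps in 2 (22.2%) of 9 cases and higher in none. Over all annotated gene models, 4.13% were higher and 6.78% lower. Lcc9 (399751) had 29.3, 20.02 and 35.5 CPM in early caps, against 73.1, 66.9 and 82.4 CPM in early stipes (log2 fold change -1.39 ± 0.19, adjusted p = 0.00024). For lcc10 (399752), with 15.01, 7.05 and 11.4 CPM in early caps, against 12.8, 24.8 and 39.6 CPM in early stipes (log2 fold change -1.20 ± 0.33, adjusted p = 0.0289), early cap 1 overlapped the stipes, and the call was lost when early caps 2 and 3 and early stipes 2 and 3 were each left out (adjusted p = 0.0724 to 0.156) and with the 6 early libraries fitted alone (adjusted p = 0.0919). Of 9 AA3 oxidoreductases, 448758 (242, 335 and 228 CPM in early caps, against 98.4, 119.8 and 56.05 CPM in early stipes, log2 fold change 1.55 ± 0.27, adjusted p = 0.00193) and 688862 (324, 467 and 328 CPM in early caps, against 203, 205 and 102 CPM in early stipes, log2 fold change 1.13 ± 0.27, adjusted p = 0.015) rose, and 684961 (3.07, 2.12 and 5.76 CPM in early caps, against 16.9, 20.2 and 52.2 CPM in early stipes, log2 fold change -3.02 ± 0.63, adjusted p = 0.00615) fell. The call of 688862 was lost when early cap 2 and early stipe 3 were each left out (adjusted p = 0.0573 to 0.0975), and without early stipe 3, 1 of the 9 rose and 3 fell. Of 8 copper radical oxidases (AA5), which make hydrogen peroxide, only 247761 was called (69.4, 59.2 and 58.7 CPM in early caps, against 131, 188 and 153 CPM in early stipes, log2 fold change -1.33 ± 0.24, adjusted p = 0.00208), while the median of the 8 was -1.05. None of 4 lytic monooxygenases (AA9) and none of 6 tyrosinases or hemocyanins was called, though without early stipe 1, 2 tyrosinases or hemocyanins fell. GOOX (396511), by its symbol and family AA7 a glucooligosaccharide oxidase, had 182, 123 and 165 CPM in early caps, against 557, 566 and 447 CPM in early stipes (log2 fold change -1.74 ± 0.33, adjusted p = 0.00318).

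Cytochromes P450, heme monooxygenases of primary and secondary metabolism, rose in 4 (15.4%) of 26 cases and fell in 1 (3.85%), beside 4.13% and 6.78% of annotated gene models. Gene model 315577 had 50.8, 78.4 and 75.99 CPM in early caps, against 18.7, 18.2 and 12.9 CPM in early stipes (log2 fold change 2.04 ± 0.35, adjusted p = 0.0016) and 679472 had 45.3, 67.8 and 47.3 CPM in early caps, against 13.00, 15.2 and 13.99 CPM in early stipes (log2 fold change 1.93 ± 0.22, adjusted p = 6.58e-05). Gene models 236602 and 323171 had log2 fold changes of 1.72 ± 0.19 (adjusted p = 4.71e-05) and 1.63 ± 0.45 (adjusted p = 0.0318), and the call of 323171 was lost when early caps 1, 2 and 3 and early stipes 2 and 3 were each left out (adjusted p = 0.0569 to 0.119). Of 3 terpene synthases in the list, to which 484390 did not belong, 312850 fell (16.6, 11.7 and 16.7 CPM in early caps, against 33.4, 56.1 and 26.8 CPM in early stipes, log2 fold change -1.37 ± 0.23, adjusted p = 0.00119). Glutathione transferases, enzymes of detoxification, lay below 0 in 9 of 10 cases with a median of -1.51, but only 596678 was called, with 11.03, 8.57 and 14.1 CPM in early caps, against 33.96, 99.3 and 89.99 CPM in early stipes (log2 fold change -2.73 ± 0.71, adjusted p = 0.0223), and that call was lost when early caps 1, 2 and 3 and early stipes 2 and 3 were each left out (adjusted p = 0.0568 to 0.115). Their summed level was 1153, 1064 and 1056 CPM in early caps, against 1947, 4472 and 4772 CPM in early stipes, and stipe 1 lay nearest to the caps. LbGCS (247161), the glutamate-cysteine ligase that starts the synthesis of glutathione, also fell (50.6, 42.9 and 42.6 CPM in early caps, against 101, 133 and 76.7 CPM in early stipes, log2 fold change -1.19 ± 0.18, adjusted p = 0.000689), a call lost without early stipe 2 (log2 fold change -0.97). LbFd3 (148435), named by its symbol alone, rose (6.55, 6.55 and 5.68 CPM in early caps, against 2.92, 3.36 and 2.97 CPM in early stipes, log2 fold change 1.02 ± 0.18, adjusted p = 0.00174), a call lost when early caps 1 and 2 and early stipes 1 and 3 were each left out (log2 fold change 0.97 to 0.98). In all, the call of LbFd3 was lost in 10 of the 17 other settings, among them DESeq2 and RLE scaling. LbGR (290991) fell by 2.35 (adjusted p = 0.0204), a call lost when early caps 1, 2 and 3 and early stipes 2 and 3 were each left out (adjusted p = 0.0614 to 0.0884).

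Desaturases make unsaturated fatty acids for membranes and for signals derived from them. By their RefSeq symbols, again chosen after the values were seen, 4 of 5 FAD12 gene models were tested, which are named for delta-12 desaturases, and 2 rose, none fell and the median was 1.88. FAD12-1 (254799) had 45.99, 57.8 and 45.2 CPM in early caps, against 8.58, 4.83 and 5.67 CPM in early stipes (log2 fold change 2.97 ± 0.22, adjusted p = 2.26e-06) and FAD12-3 (309734) had 40.00, 24.7 and 43.8 CPM in early caps, against 7.38, 4.86 and 5.53 CPM in early stipes (log2 fold change 2.61 ± 0.23, adjusted p = 9.09e-06). Both were kept with each early library left out. Over all gene models tested, 2.18% rose.

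Transport proteins changed in both directions. Ammonium transporters import the main nitrogen source of many fungi. Of 5 tested 2 rose, both with few reads, LbAMT2.2 (331747) with 1.89, 3.87 and 1.62 CPM in early caps, against 0.927, 1.18 and 0.528 CPM in early stipes (log2 fold change 1.47 ± 0.39, adjusted p = 0.0271) and 484007 with 0.723, 0.636 and 1.23 CPM in early caps, against 0.316, 0.256 and 0.235 CPM in early stipes (log2 fold change 1.69 ± 0.40, adjusted p = 0.0142), while the summed level of the 5 was 436, 516 and 474 CPM in early caps, against 677, 927 and 636 CPM in early stipes. The call of LbAMT2.2 was lost when early cap 2 and early stipes 1 and 3 were each left out (adjusted p = 0.0627 to 0.196) and that of 484007 when early cap 3 and early stipes 2 and 3 were each left out (adjusted p = 0.0545 to 0.0795). The nitrate transporter LbNrt (254042) fell, with 7.85, 7.24 and 10.5 CPM in early caps, against 17.7, 21.04 and 19.3 CPM in early stipes (log2 fold change -1.18 ± 0.19, adjusted p = 0.00117). Of 23 transporters of amino acids and peptides 1 (4.35%) rose and 2 (8.7%) fell, beside 4.13% and 6.78% of annotated gene models. The permease 301980 had a log2 fold change of 1.11 ± 0.27 (adjusted p = 0.0143), a call lost when early cap 2 and early stipes 1 and 3 were each left out (adjusted p = 0.0547 to 0.102). The permease 188015 had a log2 fold change of -1.23 ± 0.31 (adjusted p = 0.0191), a call lost when early cap 2 and early stipes 2 and 3 were each left out (adjusted p = 0.0643 to 0.109). The oligopeptide transporter 190652 had 246, 225 and 276 CPM in early caps, against 648, 647 and 797 CPM in early stipes (log2 fold change -1.49 ± 0.24, adjusted p = 0.00115).

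Transporters of the major facilitator superfamily, which carry sugars, drugs and other small solutes, rose in 3 (4.35%) and fell in 11 (15.9%) of 69 cases, with a median of -0.03. Over all annotated gene models the shares were 4.13% and 6.78%. None of the carbohydrate or ABC transporters below rose, and 11.1% and 9.09% of them fell. Without early cap 2, 2 rose and 6 fell, without early cap 3, 7 fell, and without early stipe 1, 5 rose. Gene model 601821 had 116, 142 and 131 CPM in early caps, against 14.5, 11.6 and 5.82 CPM in early stipes (log2 fold change 3.61 ± 0.37, adjusted p = 2.65e-05) and 478960 had 335, 391 and 337 CPM in early caps, against 75.4, 67.5 and 74.9 CPM in early stipes (log2 fold change 2.29 ± 0.26, adjusted p = 5.59e-05). Lower in early caps were 643801, with 219, 224 and 221 CPM in early caps, against 1119, 1308 and 2306 CPM in early stipes (log2 fold change -2.83 ± 0.33, adjusted p = 6.58e-05), and 297571, with 148, 54.8 and 85.9 CPM in early caps, against 149, 637 and 893 CPM in early stipes (log2 fold change -2.54 ± 0.64, adjusted p = 0.0192), in which early cap 1 lay just under stipe 1. The call of 297571 was lost when early caps 2 and 3 and early stipes 2 and 3 were each left out (adjusted p = 0.0583 to 0.11). The sugar symporter 680250 was the only called member of 9 carbohydrate transporters (log2 fold change -1.11 ± 0.33, adjusted p = 0.0419), and its call was lost when early caps 1, 2 and 3 and early stipes 1 and 2 were each left out (adjusted p = 0.0512 to 0.234). Of 22 ABC transporters, ATP-driven exporters, 314719 (53.2, 28.3 and 49.6 CPM in early caps, against 135, 161 and 152 CPM in early stipes, log2 fold change -1.77 ± 0.38, adjusted p = 0.00765) and 307042 (64.3, 51.9 and 53.4 CPM in early caps, against 169, 255 and 126 CPM in early stipes, log2 fold change -1.70 ± 0.44, adjusted p = 0.0222) fell, which were lost without early cap 2 (adjusted p = 0.0601) and when early caps 2 and 3 and early stipe 2 were each left out (adjusted p = 0.0764 to 0.109).

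Cation diffusion facilitators move zinc and other metals out of the cytosol. They too were chosen by symbol after the values were seen, and of all gene models tested 2.18% rose. Of 8 gene models with CDF symbols 6 were tested, and CDF-A (305317), with 15.6, 19.1 and 14.6 CPM in early caps, against 4.93, 4.35 and 3.71 CPM in early stipes (log2 fold change 1.92 ± 0.27, adjusted p = 0.000328), and CDF-F (244654), with 12.3, 19.8 and 13.5 CPM in early caps, against 7.77, 6.44 and 4.44 CPM in early stipes (log2 fold change 1.29 ± 0.21, adjusted p = 0.00103), rose. None of the 6 aquaporins, channels for water and glycerol, was called, though 456764 passed with the 6 early libraries fitted alone (log2 fold change 1.275, adjusted p = 0.049). Their log2 fold changes were 1.29 for 456764 (22.4, 36.1 and 21.2 CPM in early caps, against 14.4, 12.7 and 5.41 CPM in early stipes, adjusted p = 0.0815), 0.46 for 671860, 0.27 for 482072, 0.25 for 576801, 0.22 for 317173 and -0.21 for 443240.

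Transcription factors named for fruiting in other mushrooms were called in 1 of 8 cases. Of these relatives only LbExp1 (644689), an HMG-box protein whose relative in *C. cinerea* is needed for cap expansion, was called, with 184, 110.0 and 146 CPM in early caps, against 168, 272 and 442 CPM in early stipes (log2 fold change -1.001 ± 0.29, adjusted p = 0.0395). Early cap 1 overlapped the stipes, the size was at the threshold, and the call was lost when early caps 2 and 3 and early stipes 2 and 3 were each left out (adjusted p = 0.0835 to 0.206) and with the 6 early libraries fitted alone (adjusted p = 0.101). The other 7 were not called, with log2 fold changes of 0.22 for LbFst4 (308722), -0.09 for LbFst3 (585149), -0.09 for LbHom1-1 (324166), -0.11 for LbPriB (381332), -0.12 for LbWC2 (306097), -0.36 for LbC2h2 (487295) and -0.70 for a GATA-type factor (585421). LbFst3 and LbWC2, for example, had 271, 194 and 203 CPM and 58.2, 73.5 and 71.5 CPM in early caps, against 236, 295 and 179 CPM and 82.1, 66.6 and 72.2 CPM in early stipes. LbWC2 is a relative of a subunit of the fungal blue light receptor complex. 

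Relatives of genes named for development in *C. cinerea* gave 1 rise and 1 fall among 11 of 12 tested. The rise was 236702, an eln3-like glycosyltransferase (143, 143 and 133 CPM in early caps, against 61.1, 66.04 and 32.9 CPM in early stipes, log2 fold change 1.39 ± 0.28, adjusted p = 0.00559). In *C. cinerea*, eln3 is needed for the elongation of the stipe. Gene model 331690, annotated as eln3, was not called (317, 295 and 266 CPM in early caps, against 196, 199.6 and 98.4 CPM in early stipes, log2 fold change 0.83 ± 0.33, adjusted p = 0.13), nor was a further eln3-like gene model, 192205 (-0.36). The fall was Cospin2. Uncalled were also 668080, annotated as NsdD1 (a GATA factor), with 20.7, 15.05 and 17.2 CPM in early caps, against 30.2, 34.4 and 32.9 CPM in early stipes (log2 fold change -0.88 ± 0.20, adjusted p = 0.0118), the velvet-related 572498 (-0.54), the dst2 relative 649865 (-0.23, related to a light-response gene), the laccase lcc4 (399746, -0.04), the thaumatin-like 399641 (0.45), the Fido domain protein 480633 (-0.03) and Cospin1.

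Of 72 other transcription factors tested 3 (4.17%) rose and 7 (9.72%) fell, beside 4.13% and 6.78% of annotated gene models, with a median of -0.33. The 3 rises were large. LbCon7 is given above, the Zn2Cys6 factor 593632 had 47.04, 53.8 and 46.6 CPM in early caps, against 6.55, 5.40 and 3.97 CPM in early stipes (log2 fold change 3.21 ± 0.37, adjusted p = 6.58e-05) and the HMG-box factor 444460 had 52.3, 57.8 and 36.4 CPM in early caps, against 5.07, 6.04 and 9.69 CPM in early stipes (log2 fold change 2.82 ± 0.38, adjusted p = 0.000245), and none lost its call with a library left out. The largest fall was the GATA-type factor 667316, with 8.22, 5.24 and 8.06 CPM in early caps, against 29.3, 82.98 and 59.4 CPM in early stipes (log2 fold change -2.995 ± 0.72, adjusted p = 0.0146), a call lost when early cap 2 and early stipe 2 were each left out (adjusted p = 0.0592 to 0.089). The number that fell was 3 without early cap 2, 4 without early cap 3 and 3 without early stipe 2. Protein kinases, which relay signals by phosphorylation, rose in 2 (1.65%) and fell in 8 (6.61%) of 121 cases. For all annotated gene models the shares were 4.13% and 6.78%. The MAP kinase-like 639980 had 801, 1236 and 852 CPM in early caps, against 415, 361 and 278 CPM in early stipes (log2 fold change 1.45 ± 0.23, adjusted p = 0.00103). Lower in early caps were 708139, with 64.6, 48.4 and 61.3 CPM in early caps, against 154, 189 and 178 CPM in early stipes (log2 fold change -1.58 ± 0.18, adjusted p = 6.58e-05), 296972 with a log2 fold change of -1.49 ± 0.26 (adjusted p = 0.00203) and 686765 with -1.32 ± 0.27 (adjusted p = 0.00508). These 4 calls were kept with each early library left out.

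F-box and BTB proteins bring other proteins to ubiquitin ligases, which mark them for degradation. Of 47 F-box proteins 1 rose and 10 (21.3%) fell in early caps, with a median of -0.52 and 35 of the 47 below 0. Gene model 653903 had 11.6, 9.75 and 25.4 CPM in early caps, against 62.6, 55.1 and 143 CPM in early stipes (log2 fold change -2.48 ± 0.36, adjusted p = 0.000405), 704262 had 102, 49.3 and 81.01 CPM in early caps, against 205, 332 and 333 CPM in early stipes (log2 fold change -1.91 ± 0.37, adjusted p = 0.00382) and 462004 had 9.86, 9.02 and 11.2 CPM in early caps, against 36.6, 38.6 and 28.5 CPM in early stipes (log2 fold change -1.78 ± 0.17, adjusted p = 1.73e-05). In each of these 3 no cap reached a stipe, and the calls were kept with each early library left out. Gene model 477341 had few reads (3.31, 0.694 and 2.33 CPM in early caps, against 6.02, 6.72 and 9.03 CPM in early stipes, log2 fold change -1.78 ± 0.44, adjusted p = 0.0166), and its call was lost when early cap 2 and early stipe 3 were each left out (adjusted p = 0.0588 to 0.0635). Of 12 BTB proteins 5 (41.7%) fell and none rose, with a median of -0.57. Gene model 292700 had 29.7, 21.2 and 30.04 CPM in early caps, against 94.9, 94.9 and 109 CPM in early stipes (log2 fold change -1.88 ± 0.20, adjusted p = 2.65e-05) and 466261 had 13.4, 8.42 and 13.5 CPM in early caps, against 25.8, 28.7 and 29.2 CPM in early stipes (log2 fold change -1.25 ± 0.26, adjusted p = 0.00633). Gene models 291921 and 466494 had log2 fold changes of -1.27 ± 0.30 (adjusted p = 0.0124) and -1.21 ± 0.28 (adjusted p = 0.0116), which were lost when early caps 1 and 2 and early stipe 3 were each left out (adjusted p = 0.052 to 0.0766) and without early cap 2 (adjusted p = 0.0659). Without early cap 2, 5 F-box proteins and 2 BTB proteins fell, and without early stipe 3, 3 BTB proteins fell and 1 rose.

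NACHT proteins are nucleotide-binding proteins that in fungi take part in the recognition of other individuals. Of 25 tested 4 (16.0%) fell and none rose, and 22 of 25 lay below 0, with a median of -0.60. All 4 had few reads. Gene model 586348 had 0.964, 0.963 and 1.24 CPM in early caps, against 1.56, 3.04 and 3.07 CPM in early stipes (log2 fold change -1.27 ± 0.23, adjusted p = 0.00294), 446941 had 1.05, 0.674 and 1.02 CPM in early caps, against 2.05, 1.95 and 2.09 CPM in early stipes (log2 fold change -1.14 ± 0.22, adjusted p = 0.00356), 435866 had 0.504, 0.405 and 0.646 CPM in early caps, against 0.809, 1.35 and 1.56 CPM in early stipes (log2 fold change -1.25 ± 0.32, adjusted p = 0.0225) and 435738 had 0.132, 0.135 and 0.126 CPM in early caps, against 0.394, 0.626 and 1.23 CPM in early stipes (log2 fold change -2.50 ± 0.46, adjusted p = 0.00278). The call of 435866 was lost when early caps 1 and 2 and early stipes 2 and 3 were each left out (adjusted p = 0.0597 to 0.121) and that of 446941 without early cap 2 (log2 fold change -0.97). Without early cap 2, 2 of the 4 fell. Among 29 heat shock proteins and chaperones only the DnaJ protein 668157 was called, with 38.5, 25.5 and 34.2 CPM in early caps, against 83.98, 70.2 and 131 CPM in early stipes (log2 fold change -1.54 ± 0.25, adjusted p = 0.00122).

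**Figure D4:**
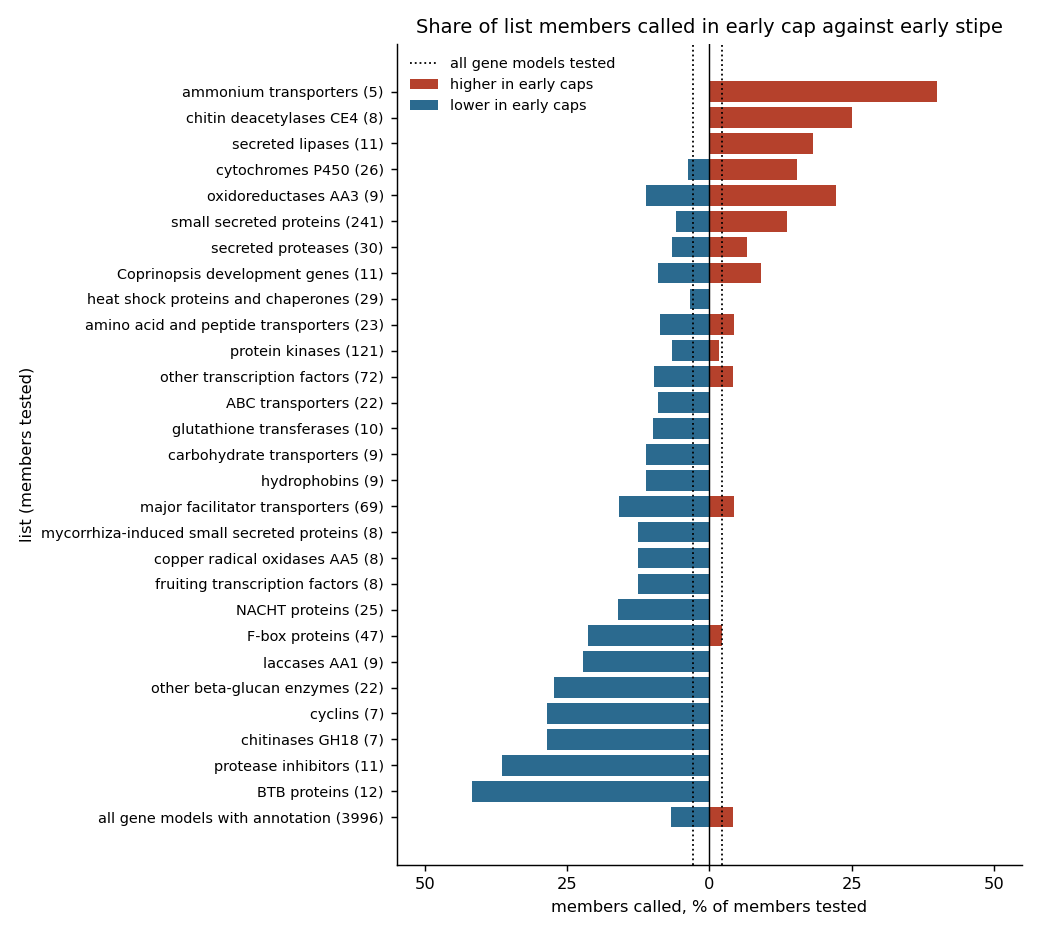
Share of tested members called (x axis, %) in each list with at least 5 tested members and at least 1 call, to the right for members higher (red) and to the left for members lower in early caps (blue), with the number tested in brackets. Dotted lines mark 2.18% and 2.98% over all gene models tested, and the lowest row shows 4.13% and 6.78% for all annotated gene models. Ammonium transporters and chitin deacetylases stand at the upper end (40% and 25% higher, 2 gene models each). BTB proteins and protease inhibitors stand at the lower end (41.7% and 36.4% lower). Among the called deacetylases, 296683 has an implied transcript length of only 171 nucleotides.

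Cyclins drive the steps of the cell cycle. Of 7 cyclins 2 (28.6%) fell, 658958 (404, 238 and 342 CPM in early caps, against 724, 885 and 849 CPM in early stipes, log2 fold change -1.32 ± 0.37, adjusted p = 0.0319) and 582420 (117, 74.6 and 96.2 CPM in early caps, against 159, 296 and 290.3 CPM in early stipes, log2 fold change -1.37 ± 0.40, adjusted p = 0.0391), which were lost when early caps 2 and 3 and early stipes 2 and 3 were each left out (adjusted p = 0.0735 to 0.167) and when early caps 1, 2 and 3 and early stipes 2 and 3 were each left out (adjusted p = 0.0582 to 0.18). None was called of 21 histones, 3 proteins of DNA replication, 2 of meiotic recombination or mismatch repair, 18 motor and cytoskeleton proteins and 3 septins, nor of 8 ricin B lectins, 4 trehalose enzymes, 2 pheromones and 2 pheromone receptors. Septins, which build rings and filaments at septa, had log2 fold changes of 0.31 (192731), 0.06 (189236) and -0.06 (173190), and lay between 404 and 1122 CPM in the 6 libraries. The STE3-type pheromone receptors had 0.29 (632625) and -0.61 (145491). Of 45 ribosomal proteins none was called either, but 40 lay above 0, with a median of 0.59 and a summed level of 3809, 5707 and 5798 CPM in early caps, against 3623, 2548 and 4005 CPM in early stipes, which overlap. None of 19 subunits of the respiratory chain and ATP synthase was called, with a median of -0.43, beside a median of 2.06 in medium and 0.83 in late basidiocarps. No such subunit was among the 3 gene models called for a change of the tissue difference from early to medium. That number, and the medium calls, depended on single libraries.

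In all, 29 of 46 lists held a called member, 10 of them in both directions, and 17 held none. Their members come from genes that the study lists as regulated, in part from these libraries, so the shares are not those of whole families. As the lists are described and not tested as sets, nothing is said here on whether any stands apart from other gene models.

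Some large differences were not called. Of 19 gene models that exceeded 3 in size on the log2 scale without passing the test, all 19 were lower in early caps, and of the 14 with at least 5 CPM in stipes, 13 had no overlap between tissues. Early stipe 2 was the highest stipe in 11 of the 14 and early stipe 1 in none. Each of the 14 passed under at least 1 alternative, 11 with DESeq2, 12 with the 6 early libraries fitted alone and 5 without early stipe 1. The most extreme was the small secreted protein 477175, with 0.219, 0.327 and 0.126 CPM in early caps, against 1.05, 90.4 and 9.77 CPM in early stipes (log2 fold change -7.25 ± 2.36, adjusted p = 0.0633), and early stipe 2 was far above the other stipes. The MiSSP7.6-annotated 617208 had 1.47, 0.925 and 0.583 CPM in early caps, against 2.76, 92.7 and 19.8 CPM in early stipes (log2 fold change -5.29 ± 1.98, adjusted p = 0.104). A pair of glutathione transferases showed the same order, 674829 with 56.5, 16.5 and 12.9 CPM in early caps, against 267, 1027 and 1024 CPM in early stipes (log2 fold change -4.76 ± 1.84, adjusted p = 0.116) and 296671 with 5.02, 2.62 and 1.51 CPM in early caps, against 26.7, 105 and 47.00 CPM in early stipes (log2 fold change -4.30 ± 1.86, adjusted p = 0.16). In both, stipe 1 lay between the caps and the other stipes.

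Also in this set were the laccase lcc6 (399748), with 7.78, 7.03 and 6.01 CPM in early caps, against 18.3, 169.9 and 101 CPM in early stipes (log2 fold change -3.79 ± 1.22, adjusted p = 0.0604), and the tyrosinase 295069, an enzyme of melanin synthesis, with 101, 29.9 and 403 CPM in early caps, against 467, 1719.7 and 2265 CPM in early stipes (log2 fold change -3.06 ± 0.97, adjusted p = 0.0581). The Dyp-type peroxidase 392869 had 36.3, 23.6 and 9.998 CPM in early caps, against 30.4, 798 and 121 CPM in early stipes (log2 fold change -3.76 ± 1.41, adjusted p = 0.104), and here early cap 1 overlapped stipe 1. The FAD-binding oxidoreductase 688984 had 98.5, 72.7 and 39.3 CPM in early caps, against 775, 1013 and 1289 CPM in early stipes (log2 fold change -3.87 ± 1.42, adjusted p = 0.0966). The ABC transporter 392638 (log2 fold change -3.45 ± 1.14, adjusted p = 0.0665) and gene models 331339 (log2 fold change -3.49 ± 1.08, adjusted p = 0.0516), 467257 (log2 fold change -3.76 ± 1.16, adjusted p = 0.0519), 699963 (log2 fold change -3.43 ± 1.15, adjusted p = 0.0694), 303534 (log2 fold change -3.24 ± 1.24, adjusted p = 0.11) and 674969 (log2 fold change -3.23 ± 1.15, adjusted p = 0.0877), without a described function, make up the rest.

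The same tissues at the medium and late stages, in other libraries, show how far the early difference was found again. Cap and stipe differed in 1898 gene models (11.5%) at the medium stage, with 6.47% higher and 5.05% lower in caps, and in 4013 (24.3%) at the late stage, with 14.8% higher and 9.55% lower. The medium count was 1082 without medium cap 2 (621 higher and 461 lower) and 3230 without medium cap 3 (1482 higher and 1748 lower). With the near-alike medium stipes and late caps summed, the counts were 1693 at the medium and 3807 at the late stage. Of the 359 gene models higher in early caps, 348 (96.9%) were also higher in medium caps than in medium stipes and 318 (88.6%) in late caps than in late stipes, and 201 (56.0%) and 209 (58.2%) were called in the same direction. For all tested gene models above 0 at the early stage, the direction was kept in 72.7% at the medium and in 65.1% at the late stage. Of these gene models above 0, 11.2% and 21.4% were called in the same direction. Of the 491 lower in early caps, 462 (94.1%) were lower in medium and 400 (81.5%) in late caps, with 274 (55.8%) and 220 (44.8%) called in that direction. Here the direction was kept in 75.8% and 67.1% of all gene models below 0, and 10.2% and 16.5% of them were called in it. At all 3 stages 153 (42.6%) of the 359 and 166 (33.8%) of the 491 were called in the same direction.

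**Figure D5:**
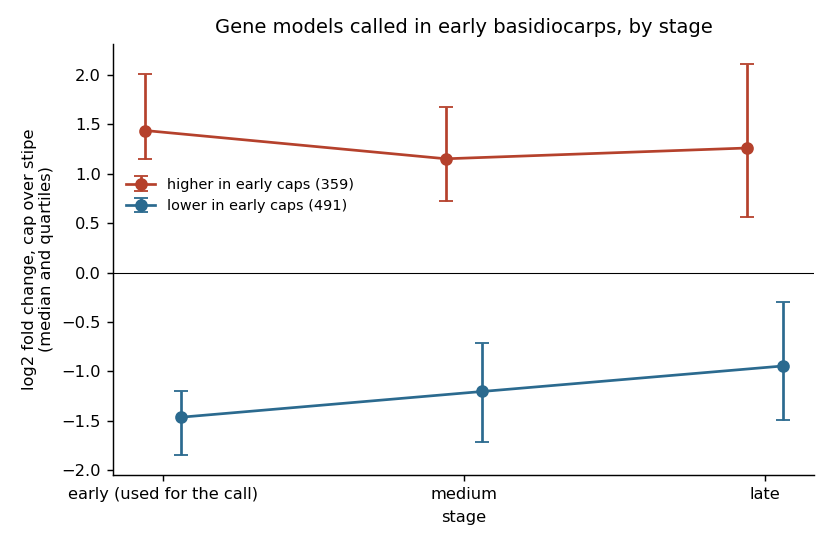
Log2 fold change of cap over stipe (y axis) at the early, medium and late stage (x axis) for the 359 gene models higher (red) and the 491 lower (blue) in early caps. Points are medians and bars run from the lower to the upper quartile. The medians are 1.44, 1.15 and 1.26 for the first set and -1.46, -1.20 and -0.95 for the second, and the early values were used for the call.

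The medians at the medium and late stages were 1.15 and 1.26 for the gene models higher in early caps and -1.20 and -0.95 for those lower, and as the early values chose these sets, the early medians are given as a description only. Among the largest rises, 706099 had log2 fold changes of 3.44 and 5.36 in medium and late basidiocarps and 295528 3.40 and 6.67. Gene model 316267 (1.87 and 0.18) and LbCon7 (1.21 and -0.39) did not pass the test at the late stage (adjusted p = 0.656 and 0.53). LbCon7 did not pass at the medium stage either (adjusted p = 0.073). Among the largest falls, 305233 remained low in caps (-5.93 and -4.67), while 307022 (-1.68 and 1.60) and 294535 (-0.76 and 0.54) did not pass at the late stage (adjusted p = 0.199 and 0.597). Gene model 294535 did not pass at the medium stage either (adjusted p = 0.496). In the clitocypin 318727 the values were -4.39 and -2.11.

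Tests of the change itself, as the tissue difference at a later stage minus that at the early stage, called 3 gene models (0.0182%) for the medium stage and 2384 (14.5%) for the late stage, where 9.84% changed upwards and 4.62% downwards. With the near-alike later libraries summed, the late number was 1931 (1400 upwards and 531 downwards). The 3 for the medium stage were all lower than at the early stage. Gene model 291348, annotated as a nitrite reductase, was higher in early caps (37.4, 33.98 and 34.3 CPM in early caps, against 16.2, 16.1 and 10.7 CPM in early stipes, log2 fold change 1.29 ± 0.16, adjusted p = 8.73e-05), and its tissue difference was -0.66 at the medium stage, a change of -1.96 (adjusted p = 0.00186). The proline dehydrogenase 327455, which starts the breakdown of proline, was not called at the early stage (log2 fold change 0.38 ± 0.19, adjusted p = 0.217) and had -1.71 at the medium stage, a change of -2.10 (adjusted p = 0.00551). Gene model 399837, without annotation, changed by -1.15 (adjusted p = 0.0163), with 0.51 at the early and -0.63 at the medium stage. This low number is no measure of how alike the stages were, since it was 1025 when medium cap 3 was left out and 105 with DESeq2.

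Some early differences were called in the other direction later on. Of all 8595 gene models tested above 0 at the early stage, 28 were called lower in medium and 273 in late caps. Of all 7890 below 0, 105 were called higher in medium and 595 in late caps. The shares among the gene models called at the early stage were no higher than these. None of the 359 gene models higher in early caps was called lower in medium caps, and 4 were called lower in late caps. These were 473368, with cytochrome b561 and DOMON domains (1.07 at the early and -1.76 at the late stage), the leucine-rich repeat protein 302370 (1.09 and -1.94), 611981 (1.16 and -1.16) and 586446 (1.31 and -1.38), all at less than 5 CPM in early caps. The early call of 473368 was lost when early cap 3 and early stipe 1 were each left out (log2 fold change 0.88 to 0.96), that of 302370 when early stipes 1 and 2 were each left out (log2 fold change 0.95 to 0.97) and that of 611981 with any of the 6 early libraries left out (adjusted p = 0.0633 to 0.18). Of the 491 lower in early caps, 3 were called higher in medium caps and 29 higher in late caps. The 3 were the small secreted protein 666403 (4.49, 2.77 and 2.69 CPM in early caps, against 11.3, 27.2 and 20.1 CPM in early stipes, log2 fold change -2.56 ± 0.75, adjusted p = 0.0413, then 2.72 and 3.19), 304462 (-1.15, then 1.07 and 1.09) and the GH128 enzyme 379551 (-1.02, then 1.28 and 1.46). Their early calls were lost when early caps 1, 2 and 3 and early stipes 2 and 3 were each left out (adjusted p = 0.0688 to 0.166) for 666403, with any of the 6 early libraries left out (adjusted p = 0.0592 to 0.194) for 304462 and when early caps 1, 2 and 3 and early stipes 1 and 2 were each left out (adjusted p = 0.0541 to 0.155) for 379551.

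Set side by side, and sharing the early libraries with the early comparison, the 359 gene models higher in early caps had a median log2 fold change of -0.56 for late against early caps and of -0.28 for late against early stipes. The 491 lower in early caps had medians of 0.81 for late against early caps and of 0.15 for late against early stipes.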

How the data were processed

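The authors extracted RNA with CTAB and lithium chloride, made stranded mRNA libraries and sequenced paired reads, which were trimmed and aligned by CLC Genomics Workbench against the *L. bicolor* transcript set, allowing up to 10 hits a read. The deposited tables give, for each of 23130 gene models, a read count and an RPKM value (reads scaled by transcript length and by the number of mapped reads, by the authors). Whether only unique reads were counted, and whether strand was used, is not given in the sources used here. The submitters' processing notes name DESeq2.

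The deposited counts were analysed in R 4.3.3 with edgeR 4.0.16. Gene models were filtered with filterByExpr (16485 tested, 6645 not tested), libraries were scaled by TMM, and glmQLFit and glmQLFTest were run with all 6 groups of 3 libraries in 1 model, so that they share the estimate of spread. Contrasts were cap minus stipe at each stage and the change of that difference between stages. Calls needed a Benjamini-Hochberg adjusted p under 0.05 and a log2 fold change above 1 in size. The deposited RPKM values served only for levels per length, for ranking and for implied transcript length. The depth of 40879632 to 70771764 reads in the early libraries sets the counting precision. The fit was also run on simulated counts with known changes.

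Named gene models were the 10 largest rises and 10 largest falls of at least 5 CPM in the higher tissue and without overlap, the 5 called with the highest RPKM in each direction, up to 4 called members of each of 46 lists and all members of the lists named one by one. Gene models named by symbol, by a large difference that was not called or by their change between stages were chosen after their values were seen. The lists and members were chosen with earlier results of these data known. Annotation words (names and domains only, 4148 gene models) come from the study's tables of regulated genes. Part of that regulation was found in these same libraries. The lists therefore hold only members that stand in those tables, not whole gene families. Symbols come from RefSeq (6580 gene models matched by locus number, assembly V1.0). Neither source gave sequences or coordinates that were used here.

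Alternatives were DESeq2 1.42.0, scaling by RLE, TMM leaving out the top 50 gene models by reads, other filters, the replicate number as a block, the 6 early libraries alone, the near-alike later libraries summed, other thresholds and each library left out in turn.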

Additional observations from a re-analysis of the deposited data

Results flagged for a closer look

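The tissue difference changed between stages, by a test of the change itself in edgeR's quasi-likelihood model (adjusted p under 0.05 and a change above 1 in size on the log2 scale), for 58 values of the gene models named above. Of these, 3 were for the medium stage, with changes of -1.96 in the nitrite reductase-annotated 291348, -2.10 in the proline dehydrogenase 327455 and -1.15 in 399837. The other 55 were for the late stage. Both kinds share the early libraries with the early comparison. The 3 were named because they passed this test, and some of the others because their direction was called reversed later. Their number is therefore no result. Over all gene models tested, 0.0182% passed for the medium and 14.5% for the late stage. Single late values were not checked with the near-alike late caps summed.

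Among gene models higher in early caps, the tissue difference moved down at the late stage in 236602 at -1.29, FAD12-1 (254799) at -1.71, LbCon7 (292045) at -4.19, 302370 at -3.02, FAD12-3 (309734) at -1.76, 315577 at -2.95, 316267 at -4.00, 388995 at -2.03, 473368 at -2.83, 478960 at -2.71, the terpene synthase-like 484390 at -3.05, 586446 at -2.69, the Zn2Cys6 factor 593632 at -1.68, 601821 at -2.49 and 611981 at -2.32. It moved up in LbFd3 (148435) at 1.15, the eln3-like 236702 at 1.42, 294590 at 2.63, 296683 at 1.35, 296684 at 1.29, 323171 at 2.46, MISSP12 (395257) at 2.89, 442443 at 3.75, 474038 at 2.83 and 654325 at 2.50.

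Among gene models lower in early caps, the tissue difference moved up in 175190 at 1.94, MISSP23.4 (293729) at 2.16, 294535 at 4.50, LbNRG1 (296037) at 3.46, 296972 at 1.16, 304462 at 2.24, 307022 at 5.61, 312850 at 1.44, 317672 at 1.63, 379551 at 2.48, lcc10 (399752) at 1.39, 446941 at 1.04, 479306 at 2.99, 643801 at 1.84, 653903 at 1.63, 666403 at 5.75 and 680250 at 2.20.

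Among gene models that were not called at the early stage, the difference moved down in the pheromone receptor 145491 at -1.07, LbFst4 (308722) at -1.67 and LbHom1-1 (324166) at -1.18. It moved up in the septin 173190 at 1.27, the expansin-like 313260 at 1.89, LbH14 (318421) at 2.60, the expansin-like 323571 at 4.44, 331339 at 5.73, the eln3-annotated 331690 at 1.46, 399641 at 2.08, the aquaporin 456764 at 2.00, the hydrophobin 624234 at 3.46 and the NsdD1-annotated 668080 at 1.08. No test of an explanation was made for any of these values.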

How the results depend on the processing

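None of the 175 named gene models had a call in the other direction under any alternative run. The 850 early calls (359 higher and 491 lower in early caps) were 97 (68 and 29) when tested against a log2 fold change of 1 with glmTreat, 1604 (742 and 862) with no minimum fold change and 493 (227 and 266) at an adjusted p under 0.01. With DESeq2 they were 1039 (382 and 657), with RLE scaling 864 (340 and 524), with the 6 early libraries alone 1020 (387 and 633) and with the near-alike later libraries summed 778 (311 and 467). Leaving out an early library gave 446 (without early cap 2) to 894 calls (without early stipe 1), with 225 to 345 higher and 221 to 555 lower. Of the 850, 432 (50.8%) were also called without early cap 2, 537 (63.2%) without early stipe 2 and 565 (66.5%) without early stipe 3. The cause was not tested.

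Deviations of cap and stipe replicates with the same number had correlations of -0.304, 0.0361 and 0.172, beside -0.305 to 0.345 for unlike numbers. With 3 libraries a tissue, these values cannot decide whether caps and stipes came from the same basidiocarps. The numbers were taken as names only, and the main test is unpaired. With the replicate block there were 814 early calls (349 and 465), and 7 of the 175 named gene models lost and 2 gained a call.

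The change of the tissue difference between the early and the medium stage had 3 calls (0 positive and 3 negative), against 105 (57 and 48) with DESeq2, 1 positive call with the replicate block, and 1 call, which was negative, with the later libraries summed. Leaving out a library gave 2 to 1025 calls (0 to 388 positive, 2 to 637 negative), most without medium cap 3. For the late stage it gave 1860.0 to 2705 calls (1356 to 1754 positive, 504 to 951 negative). Cap against stipe ranged from 1082 to 3230.0 calls at the medium stage (621 to 1482 positive, 461 to 1748 negative) and from 3552 to 4107 at the late stage (2226 to 2459 and 1326 to 1648). The cause was not tested. With 3 libraries a tissue, differences near the threshold depend on single libraries.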
